A study of Mus musculus with 6 samples.

Results

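The genes described here encode acute phase proteins, which are secreted mainly by hepatocytes and whose levels in plasma change during inflammation or injury. They are the 4 mouse serum amyloid A genes *Saa1*, *Saa2*, *Saa3* and *Saa4*, the orosomucoid genes *Orm1* and *Orm2*, and *Lcn2*, *Hp*, *Hpx* and *Alb*. They were found by gene symbol among the 25403 genes of the deposited table, where each of the 10 had a single entry. All 10 passed the filter on low counts and were among the 14496 genes tested. In the acute phase response, cytokines such as interleukin-6 and interleukin-1 act on hepatocytes, where STAT3, C/EBP proteins and NF-κB raise the transcription of positive acute phase genes. *Saa1*, *Saa2*, *Orm1*, *Lcn2*, *Hp* and *Hpx* are textbook positive acute phase genes of the mouse, whereas *Alb* is the classical negative one, whose mRNA falls as the others are induced. The same proteins also bind lipid, haemoglobin, haem or iron carriers in plasma, so their mRNAs are widely used as a readout of the inflammatory and synthetic state of the liver.

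Poly(A) RNA from the livers of 6 mice was sequenced, 3 labelled wild-type C57BL6/J (WT) and 3 labelled whole-body *Themis* knockout (*Themis*-KO). All 6 mice had received the MASH diet, which models metabolic dysfunction–associated steatohepatitis and holds 2% cholesterol and takes 40% of its energy from fat and 20% from fructose, for 3 months from an age of 10 to 12 weeks. Each comparison is therefore between labels under the same diet. *Themis* encodes an adaptor of T cell receptor signalling, and because the deletion is in the whole body, T cells and every liver cell type of those mice carry it. The labels do not say whether livers of a label came from separate litters, so p-values measure the spread between these livers.

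The genotype labels were checked first. *Themis* (ENSMUSG00000049109) had 176, 534 and 304 counts in the WT-labelled livers, given throughout in replicate order, and 203, 180 and 211 in the *Themis*-KO-labelled ones. Scaled to a common library size (CPM), WT replicate 1 had 8.07, within the range of the *Themis*-KO-labelled livers at 8.62, 7.74 and 9.96. The labels thus overlapped, and the adjusted p of the difference was 0.199 (quasi-likelihood test of edgeR, Benjamini-Hochberg adjusted). The groups are therefore named by label, as WT-labelled and *Themis*-KO-labelled livers, and every direction given below depends on the labels. Libraries held 20679642 to 25649767 counts, of which the 10 genes took 4.55% to 5.08%. WT replicates 1 and 2 stood apart from the other 4 livers in *Gm28438*, a near-identical copy of the mitochondrial *mt-Nd3*, which took 96.6% and 96.8% of the summed counts of both genes there and 2.20% to 3.26% elsewhere. All 6 livers had *Ddx3y* at 36.2 CPM or more and *Xist* at 0.377 CPM or less, the pattern of male tissue. Values are given as CPM, counts scaled to a common library size by TMM. In bulk tissue, fewer cells of a type and less RNA per cell cannot be told apart.

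Serum amyloid A and orosomucoid genes are shown by sequence first, because how well near-identical copies can be separated bounds what can be read from each. *Saa3*, *Saa4*, *Saa1* and *Saa2* lie in this order within 42.3 kb of mouse chromosome 7 (chr7:46711998-46754313, GRCm38). *Orm1*, *Orm3* and *Orm2* lie within 21.3 kb of chromosome 4 (chr4:63344560-63365878). The first 120 coding bases of *Saa1* and *Saa2* and of *Orm1* and *Orm2* are given below from GENCODE vM21 transcripts, with capitals marking the bases at which the copies of a family differ.
Saa1: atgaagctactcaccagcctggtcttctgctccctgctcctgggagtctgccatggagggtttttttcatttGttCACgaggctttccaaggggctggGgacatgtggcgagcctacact
Saa2: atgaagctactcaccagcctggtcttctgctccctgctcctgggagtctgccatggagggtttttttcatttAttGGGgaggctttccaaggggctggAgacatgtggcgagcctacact
Orm1: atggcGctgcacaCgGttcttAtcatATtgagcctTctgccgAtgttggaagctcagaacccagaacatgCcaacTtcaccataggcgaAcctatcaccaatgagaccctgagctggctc
Orm2: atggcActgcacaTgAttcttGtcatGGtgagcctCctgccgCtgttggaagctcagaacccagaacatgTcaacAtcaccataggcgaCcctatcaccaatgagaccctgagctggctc
Over the whole coding sequence, *Saa1* and *Saa2* were identical at 95.1% of positions, with 18 mismatches, and *Orm1* and *Orm2* at 89.9%, with 63 mismatches. *Orm3*, the remaining copy, was 86.0% identical to *Orm1* and 87.9% to *Orm2*. Of the 510 windows of 100 bases along the *Saa1* transcript, 0 occurred unchanged in a *Saa2* transcript. Of the 676 such windows of *Orm1*, 47 (6.95%) occurred in another *Orm* transcript. All 100-base stretches of *Saa1* and most of *Orm1* therefore hold a base that separates them from their copies, and the sums of each family are given beside the single genes.

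Promoters are shown for *Saa1* and *Saa2*, whose levels moved together from liver to liver, and for *Lcn2* and *Orm2*, whose levels differed between the labels. They run from 250 bases before to 50 bases after the start site, in RefSeq GRCm38.p6, and are printed 5′ to 3′ in the direction of the gene. Capitals mark the match to the C/EBP motif TTGCNNAA, in which N is any base, searched on both strands. The *Saa1* promoter is chr7:46742931-46743230 (minus strand), that of *Saa2* chr7:46751583-46751882 (plus strand), that of *Lcn2* chr2:32387690-32387989 (minus strand) and that of *Orm2* chr4:63362199-63362498 (plus strand).
Saa1 promoter: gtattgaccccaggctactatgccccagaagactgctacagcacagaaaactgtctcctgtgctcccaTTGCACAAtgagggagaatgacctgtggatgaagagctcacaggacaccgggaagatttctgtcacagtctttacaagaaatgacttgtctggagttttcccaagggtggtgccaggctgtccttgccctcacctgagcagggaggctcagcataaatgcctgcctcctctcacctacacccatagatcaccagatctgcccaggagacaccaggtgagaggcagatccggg
Saa2 promoter: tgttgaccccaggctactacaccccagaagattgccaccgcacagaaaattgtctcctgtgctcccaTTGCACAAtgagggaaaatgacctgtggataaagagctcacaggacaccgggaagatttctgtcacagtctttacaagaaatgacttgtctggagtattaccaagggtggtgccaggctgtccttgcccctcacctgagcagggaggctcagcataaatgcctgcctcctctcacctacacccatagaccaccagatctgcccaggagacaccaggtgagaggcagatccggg
Lcn2 promoter: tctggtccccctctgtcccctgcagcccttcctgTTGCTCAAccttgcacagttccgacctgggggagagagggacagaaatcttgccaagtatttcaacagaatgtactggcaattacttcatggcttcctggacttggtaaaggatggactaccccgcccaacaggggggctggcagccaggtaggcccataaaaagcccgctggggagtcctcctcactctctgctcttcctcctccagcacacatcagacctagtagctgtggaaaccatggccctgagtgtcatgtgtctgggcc
Orm2 promoter: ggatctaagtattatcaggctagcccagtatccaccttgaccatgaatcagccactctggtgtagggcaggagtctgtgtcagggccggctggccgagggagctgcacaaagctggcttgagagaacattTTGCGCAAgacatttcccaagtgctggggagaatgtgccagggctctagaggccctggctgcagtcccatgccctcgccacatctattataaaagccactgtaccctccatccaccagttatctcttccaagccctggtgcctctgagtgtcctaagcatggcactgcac
The *Saa1* and *Saa2* promoters were 95.3% identical, and their matches began 182 and 183 bases upstream of the start site. The match began 216 bases upstream in *Lcn2* and 120 bases upstream in *Orm2*. RefSeq promoters were at hand for 8 of the 10 genes, *Orm1* and *Hp* being the exceptions. TTGCNNAA occurred in 8 of these 8 promoters and in 10.8% of 32851 mouse promoters of the same length. Other motifs searched on both strands included GGG and TTTCC separated by any 2 bases (NF-κB), TTCNNNGAA (STAT) and CTGGGAA (type II interleukin-6 response element), which occurred in 0 of the 8 and in 1.63%, 8.3% and 11.1% of all promoters. TATAAA occurred in 1 of the 8, *Orm2*, and in 13.6% of all promoters. The motifs were chosen after the expression values were known, and a match describes letters and not binding. Only these exact patterns were searched, so 0 matches does not show that a promoter lacks sites for a factor.

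*Lcn2* and *Orm2* rose in *Themis*-KO-labelled livers, and the other 8 acute phase protein genes did not pass the test in either direction. *Lcn2* was 2.59-fold and *Orm2* 1.56-fold higher. At an adjusted p under 0.05, 2 of 10 genes were higher and 0 were lower, beside 4.97% of all tested genes higher and 4.14% lower. *Saa4* also had an unadjusted p under 0.05, as did 30.7% of all tested genes, and with DESeq2 the count of lower genes was 1, *Alb*, where that tool called 8.02% of its tested genes higher and 7.12% lower. Without overlap between the labels, 3 genes were above (*Orm2*, *Lcn2* and *Hpx*, beside 17.7% of all tested genes) and 2 below (*Saa4* and *Alb*, beside 16.9%). The median log2 fold change of the 10 genes was −0.10, and that of all tested genes was 0.0095. With the mitochondrial type of the livers as a covariate, chosen after seeing the data, 0 of the 10 genes and 3 genes of the whole table passed the test. In that fit a single WT liver shares the type of the other label, and it gave log2 fold changes of 1.36 for *Lcn2* (adjusted p = 0.347) and 0.59 for *Orm2* (adjusted p = 0.388).

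**Figure D1:**
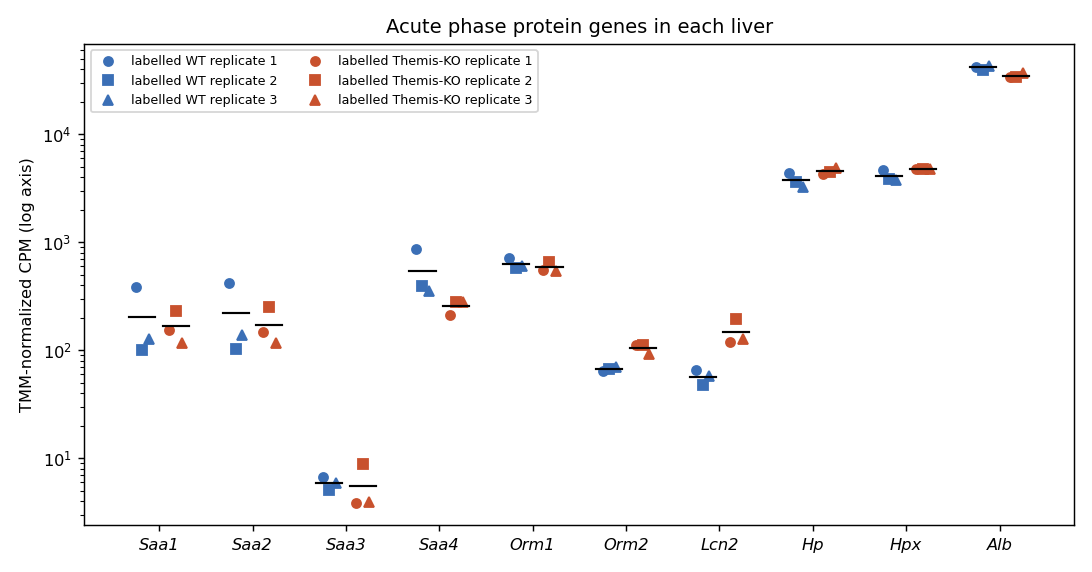
TMM-normalized CPM of the 10 acute phase protein genes in each of the 6 livers on a log axis, with WT-labelled livers in blue, Themis-KO-labelled livers in red, marker shapes for replicates 1 to 3 and a black line at the mean of each label. Lcn2 and Orm2 lie higher in all 3 Themis-KO-labelled livers, whereas Saa1 and Saa2 reach 388 and 423 CPM in WT replicate 1 alone.

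**Figure D2:**
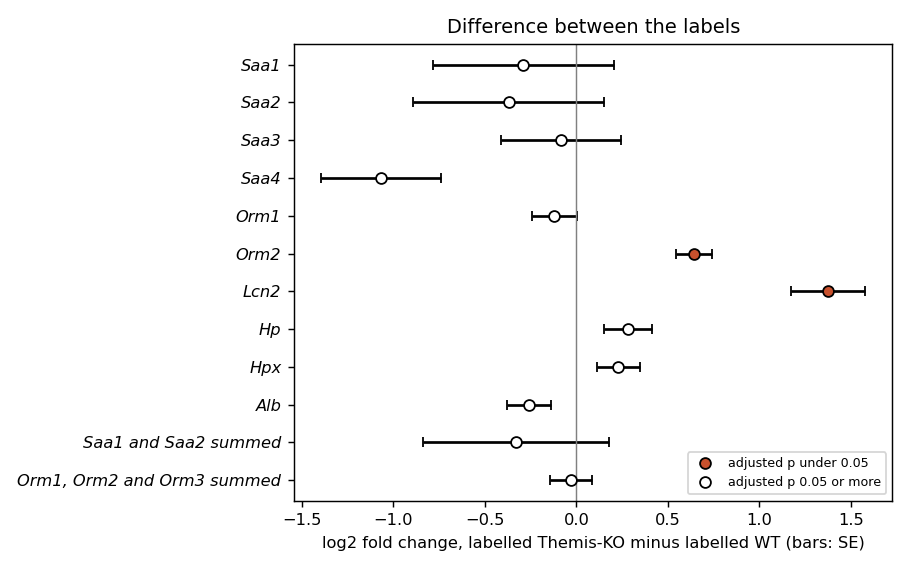
Log2 fold change of each gene and of the summed Saa1 and Saa2 and summed Orm1, Orm2 and Orm3 counts, Themis-KO-labelled livers minus WT-labelled livers, with bars of 1 SE. Filled points have an adjusted p under 0.05, and these are Orm2 at 0.64 and Lcn2 at 1.37.

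*Saa1* and *Saa2* encode the major serum amyloid A proteins of the acute phase, small apolipoproteins that travel on high-density lipoprotein. *Saa1* (ENSMUSG00000074115) had 388, 100.01 and 127 CPM in WT-labelled livers and 154, 231 and 118 CPM in *Themis*-KO-labelled livers. *Saa2* (ENSMUSG00000057465) followed the same order, with 423, 103 and 137 CPM against 147, 249 and 117 CPM. For both genes WT replicate 1 was the highest of the 6 livers and WT replicate 2 the lowest, so the ranges of the labels overlapped. The log2 fold change was −0.29 for *Saa1* (adjusted p = 0.719, SE 0.49) and −0.37 for *Saa2* (adjusted p = 0.658, SE 0.52) in edgeR's quasi-likelihood test. Without WT replicate 1 these values turned to 0.56 and 0.51, with adjusted p of 0.295 and 0.385. Livers of the WT label alone spanned a 3.88-fold range for *Saa1* and a 4.12-fold range for *Saa2*. The biological coefficient of variation was 0.417 and 0.439, above that of 98.3% and 98.7% of the tested genes.

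Within a liver *Saa1* and *Saa2* kept nearly equal counts. The ratio of *Saa2* to *Saa1* was 1.09, 1.03 and 1.08 in WT-labelled livers and 0.953, 1.08 and 0.988 in *Themis*-KO-labelled livers (two-sided exact permutation test, p = 0.3, where 3 livers against 3 allow no p under 0.1). Their sum, which does not depend on how reads were divided between them, was 811, 203 and 265 CPM against 301, 481 and 235 CPM, with a log2 fold change of −0.33 (adjusted p = 0.687, SE 0.51).

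*Saa3* is a serum amyloid A gene that in mice is also expressed outside hepatocytes, in macrophages and adipose tissue. It was the lowest of the 10 genes, at 6.69, 5.13 and 5.95 CPM in WT-labelled livers and 3.86, 8.94 and 3.96 CPM in *Themis*-KO-labelled livers. *Themis*-KO replicate 2 was the highest liver and *Themis*-KO replicates 1 and 3 the lowest, so the WT range fell inside that of the other label. The log2 fold change was −0.08 (adjusted p = 0.881, SE 0.33). Relative to *Saa1*, *Saa3* counts were 1.72%, 5.13% and 4.67% against 2.505%, 3.87% and 3.36% (two-sided exact permutation test, p = 0.9).

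*Saa4* encodes the constitutive serum amyloid A, which is present on lipoproteins without inflammation. It had 872, 396 and 358 CPM in WT-labelled livers and 214, 283 and 279 CPM in *Themis*-KO-labelled livers. All 3 *Themis*-KO-labelled livers lay below all 3 labelled WT, and WT replicate 1 was more than 2-fold above every other liver. The log2 fold change was −1.07 (adjusted p = 0.076, SE 0.33). Without WT replicate 1 it was −0.54 (adjusted p = 0.137), and with no filter on low counts the adjusted p was 0.00921.

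Orosomucoids, also called alpha-1-acid glycoproteins, are plasma lipocalins that bind drugs and steroids. *Orm1* (ENSMUSG00000039196), the most abundant copy, had 723, 584 and 601 CPM in WT-labelled livers and 553, 658 and 545 CPM in *Themis*-KO-labelled livers. Its livers overlapped, with a log2 fold change of −0.12 (adjusted p = 0.533, SE 0.12). *Orm2* (ENSMUSG00000061540) had 63.9, 67.8 and 69.6 CPM in WT-labelled livers and 111, 112 and 91.9 CPM in *Themis*-KO-labelled livers. Every *Themis*-KO-labelled liver was above every WT-labelled liver, and the difference of the means, 67.1 ± 2.91 against 105 ± 11.2 CPM (SD, n = 3), exceeded the spread within both labels. The log2 fold change of *Orm2* was 0.64 (adjusted p = 0.0185, SE 0.099, edgeR's quasi-likelihood test). Leaving out replicate 1 or 2 of WT or replicate 1 or 2 of *Themis*-KO gave, in this order, adjusted p of 0.0964, 0.0772, 0.0798 and 0.0931, with log2 fold changes from 0.59 to 0.65. *Orm3* stood at 7.57 to 11.1 CPM in the 6 livers (log2 fold change −0.06, adjusted p = 0.821).

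The ratio of the copies did not overlap between the labels, while their sum did not pass the test. *Orm2* counts were 8.85%, 11.6% and 11.6% of *Orm1* counts in WT-labelled livers and 20.1%, 16.9% and 16.9% in *Themis*-KO-labelled livers. This ratio differed by 0.76 on the log2 scale (two-sided exact permutation test, p = 0.1, the lowest possible here). *Orm1*, *Orm2* and *Orm3* together had a log2 fold change of −0.03 (adjusted p = 0.888, SE 0.12). *Orm1* held most of this sum, with a mean of 636 CPM of 712 CPM in WT-labelled livers, so the sum says little about *Orm2*.

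*Lcn2* encodes lipocalin-2, which binds bacterial siderophores and thereby withholds iron. It is made by hepatocytes in the acute phase and is also a granule protein of neutrophils. *Lcn2* (ENSMUSG00000026822, chr2:32384633-32388252, minus strand) had 65.7, 48.0 and 57.8 CPM in WT-labelled livers and 120.4, 196 and 128 CPM in *Themis*-KO-labelled livers. The lowest *Themis*-KO-labelled liver was above the highest labelled WT, and *Themis*-KO replicate 2 was the highest of all. The means were 57.2 ± 8.86 and 148 ± 41.9 CPM (SD, n = 3), and the log2 fold change was 1.37 (adjusted p = 0.0161, SE 0.20, edgeR's quasi-likelihood test). *Lcn2* counts were 0.155%, 0.121% and 0.135% of *Alb* counts in WT-labelled livers and 0.359%, 0.584% and 0.343% in *Themis*-KO-labelled livers, a ratio that does not depend on the scaling between libraries (two-sided exact permutation test, p = 0.1). Leaving out WT replicate 1, WT replicate 2 or *Themis*-KO replicate 1 gave adjusted p of 0.062, 0.0716 and 0.0504, with log2 fold changes from 1.26 to 1.5.

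The neutrophil markers were examined beside *Lcn2*. Of 14 listed neutrophil genes, 13 were in the table and 5 had enough counts to be tested. In edgeR's test 0 of the 5 passed, beside 4.97% of all tested genes higher and 4.14% lower. All 5 had a positive log2 fold change, as did 51.0% of all tested genes, and their median was 1.14. At an unadjusted p under 0.05, 4 were higher and 0 lower, beside 16.8% and 13.9% of all tested genes. With DESeq2 1 was higher and 0 lower, beside 8.02% and 7.12% of the genes it tested. The 13 genes summed to 6.95 to 11.4 CPM in WT-labelled livers and 9.20 to 26.1 CPM in *Themis*-KO-labelled livers. *S100a9* was at 1.65, 1.15 and 2.68 CPM against 6.62, 4.38 and 1.79 CPM, and *Csf3r* at 3.80, 3.74 and 5.60 CPM against 12.7, 8.81 and 4.53 CPM. The 6 granule protein genes *Mpo*, *Elane*, *Camp*, *Ngp*, *Ltf* and *Mmp8*, picked from the list after their values were seen, did not exceed 1.16 CPM in any liver. *S100a9* and *Csf3r* were above all WT-labelled livers in *Themis*-KO replicates 1 and 2 and within the WT range in replicate 3. The part of neutrophils in the values of *Lcn2* was not tested.

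*Hp* encodes haptoglobin, which captures free haemoglobin, and *Hpx* encodes hemopexin, which captures free haem. *Hp* (ENSMUSG00000031722, chr8:109575128-109579172, minus strand) had 4384, 3590.4 and 3277 CPM in WT-labelled livers and 4332, 4491 and 4868 CPM in *Themis*-KO-labelled livers. WT replicate 1 overlapped the other label, and the log2 fold change was 0.28 (adjusted p = 0.187, SE 0.13). *Hpx* (ENSMUSG00000030895, chr7:105591613-105600137, minus strand) had 4679.5, 3859.7 and 3761 CPM against 4805, 4807 and 4807 CPM, so that all 3 *Themis*-KO-labelled livers lay above WT replicate 1 by a narrow margin. Its log2 fold change was 0.23 (adjusted p = 0.219, SE 0.12). Between the centred log2 values of *Hp* and *Hpx* over the 6 livers the root mean square difference was 0.066, the smallest for any 2 members. *Saa1* and *Saa2* came next at 0.072. This measure is also small where genes vary little: the root mean square of the centred values was 0.198 for *Hp* and 0.662 for *Saa1*. It therefore does not rank how closely the genes of a pair followed each other.

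*Alb* (ENSMUSG00000029368, chr5:90460897-90476602, plus strand) encodes albumin, the main plasma protein, and took 3.53% to 4.25% of all counts. It had 42242, 39740.0 and 42986 CPM in WT-labelled livers and 33568, 33628 and 37295 CPM in *Themis*-KO-labelled livers. Every *Themis*-KO-labelled liver was below every WT-labelled liver, with means of 41656 ± 1701 and 34830.3 ± 2135 CPM (SD, n = 3). The log2 fold change was −0.26 (adjusted p = 0.185, SE 0.12), and with DESeq2 the adjusted p was 0.0394. Against *Alb* in the same liver, *Hp* counts were 10.4%, 9.03% and 7.62% in WT-labelled and 12.9%, 13.4% and 13.1% in *Themis*-KO-labelled livers. *Hpx* counts were 11.1%, 9.71% and 8.75% of *Alb* against 14.3%, 14.3% and 12.9%. Neither ratio overlapped between the labels (two-sided exact permutation test, p = 0.1 for each).

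Of the 12 hepatocyte genes, all tested, 0 were higher and 3 lower (*Cyp2e1*, *Ass1* and *Serpina1c*) in edgeR's test. These were 0% and 25% of the list, beside 4.97% and 4.14% of all tested genes. The median log2 fold change of the list was −0.37. Unadjusted, at a p under 0.05, 0 were higher and 7 lower, beside 16.8% and 13.9% of all tested genes. DESeq2 gave the same counts, beside 8.02% and 7.12% of the genes it tested. Their summed level was 27084 to 31118 CPM in WT-labelled livers and 19577 to 21459 CPM in *Themis*-KO-labelled livers. *Cyp2e1*, a cytochrome P450 of the pericentral zone, fell by 1.07 on the log2 scale (adjusted p = 0.0304, SE 0.21), and *Apoa1*, the main protein of high-density lipoprotein, had −0.29 (adjusted p = 0.107). The share of hepatocyte RNA in the libraries and its part in the values of *Alb* were not tested.

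Levels between genes were compared per kilobase of the first-numbered coding transcript of each gene in GENCODE vM21 (CPM per kb). In WT-labelled livers, *Alb* stood at 20480 ± 836, followed by *Hp* at 2788 ± 424, *Hpx* at 2735 ± 336 and *Orm1* at 821 ± 97.6 (SD, n = 3). *Saa2* at 365 ± 290.3, *Saa1* at 337 ± 261 and *Saa4* at 259 ± 137 came next, and *Orm2* at 86.6 ± 3.75, *Lcn2* at 62.5 ± 9.68 and *Saa3* at 10.7 ± 1.41 were lowest. *Hp* and *Hpx* overlapped there, as did *Saa2*, *Saa1* and *Saa4*, whereas *Orm2* was below *Saa4* and above *Lcn2* in all 3 livers. In *Themis*-KO-labelled livers the order was the same down to *Saa1*, and below it *Lcn2* at 162 ± 45.8, *Orm2* at 135 ± 14.4 and *Saa4* at 124 ± 18.4 overlapped each other. The highest *Lcn2* liver also overlapped *Saa1*, *Hp* lay above *Hpx* in all 3 livers, and *Saa3* was last at 10.1 ± 5.23. These orders depend on the length chosen. Per kilobase of all annotated exons, WT means were 259 for *Saa4*, 87.8 for *Saa2*, 86.6 for *Orm2* and 82.8 for *Saa1*. *Hpx* was then at 2735 and *Hp* at 2335, and *Hp* lay below *Hpx* in all 3 *Themis*-KO-labelled livers. 

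A list of 35 further positive acute phase genes, 34 of them tested, held both rises and falls. In edgeR's test 1 rose and 4 fell, beside 4.97% and 4.14% of all tested genes, and the median log2 fold change was −0.09. With DESeq2 2 were higher and 6 lower, beside 8.02% and 7.12% of the genes it tested. The gene that rose was *Cp*, which encodes the copper-carrying ferroxidase ceruloplasmin, at 1158, 1062 and 1157 CPM against 1436, 1560 and 1394 CPM. The protease inhibitor genes *Serpina3k*, with a log2 fold change of −1.05 (adjusted p = 0.0419, SE 0.25), *Serpina1a*, with −0.56 (adjusted p = 0.0288, SE 0.11), and *Serpina1b*, with −0.44 (adjusted p = 0.0407, SE 0.10), fell, and so did *Mbl1*, a mannose-binding lectin, with −0.43 (adjusted p = 0.0426, SE 0.10). *Serpina1a*, *Serpina1b* and *Serpina3k* belong to families of near-identical mouse genes that share reads, so their single values are uncertain. *Fga*, the fibrinogen alpha chain, had 5921, 2589 and 3471 CPM against 3583, 4193 and 2005 CPM and overlapped (adjusted p = 0.596).

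Differences between livers of the same label were common to *Saa1*, *Saa2* and many of these positive acute phase genes. WT replicate 1 was the highest of the WT-labelled livers in 8 of the 10 members and in 28 of the 34 listed genes (82.4%), compared with 33.1% of all tested genes. It exceeded both other WT livers by more than 1.5-fold in 3 members, *Saa1*, *Saa2* and *Saa4*, and in 12 of the 34 (35.3%), compared with 1.97% of all tested genes. *Themis*-KO replicate 3 was the lowest of its label in 4 of 10 members and in 28 of the 34 (82.4%), compared with 41% of all tested genes. This is a description of single livers, with no test. For *Orm2*, WT replicate 1 was the lowest of all 6 livers, and for *Lcn2* it was the highest WT liver but lay below every *Themis*-KO-labelled liver.

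**Figure D3:**
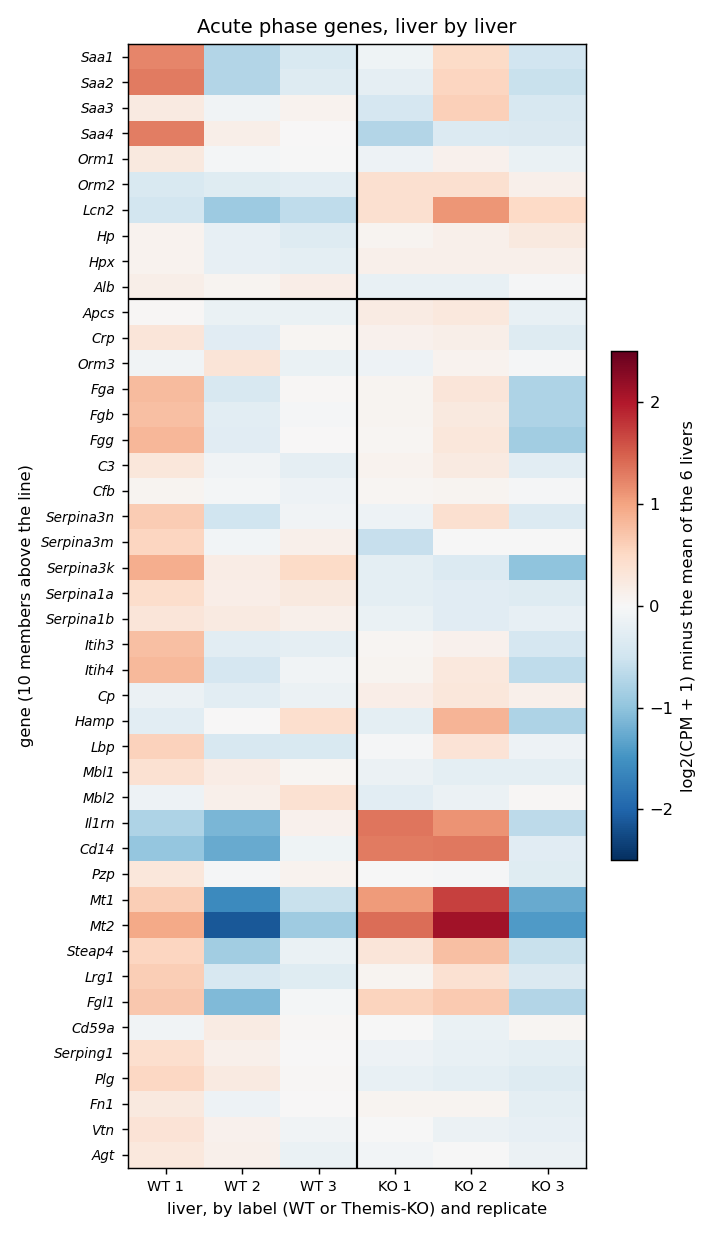
Log2(CPM + 1) of the 10 acute phase protein genes and of 34 further positive acute phase genes in each liver, minus the mean of the 6 livers (red above, blue below), with WT-labelled livers on the left and Themis-KO on the right. WT replicate 1 is the highest WT liver in 28 of the 34 listed genes, whereas Lcn2 and Orm2 separate the labels.

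The negative acute phase list, the genes that fall in inflammation as *Alb* does, held more falls than rises. All 20 genes were tested, and in edgeR's test 1 was higher and 5 lower, beside 4.97% and 4.14% of all tested genes, with a median log2 fold change of −0.32 beside 0.0095 for all tested genes. With DESeq2 1 was higher and 10 lower, beside 8.02% and 7.12% of the genes it tested. The hepatocyte list, which shares *Ttr* and *Apoa1* with this list, also held more falls than rises. In both lists 25% of the genes were lower in edgeR's test, and the hepatocyte median was −0.37. *Pon1*, the paraoxonase of high-density lipoprotein, fell by 0.71 on the log2 scale (adjusted p = 0.0223, SE 0.12), from 427 ± 56.3 to 261 ± 19.0 CPM (SD, n = 3). *Hrg*, histidine-rich glycoprotein, fell by 0.67 (adjusted p = 0.0252, SE 0.12), and *Fetub*, which encodes fetuin-B, by 0.48 (adjusted p = 0.0302, SE 0.092). The 2 other genes that fell were *Rbp4* and *Igfals*. *Serpina7*, thyroxine-binding globulin, rose by 0.61 (adjusted p = 0.0241, SE 0.11). Of the most abundant genes of the list, the iron carrier gene *Trf* had a log2 fold change of 0.08 (adjusted p = 0.637) and the vitamin D carrier gene *Gc* −0.08 (adjusted p = 0.58). In 7 of the 20 genes WT replicate 1 was the highest WT liver.

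Interleukin-6 mRNA was barely detected, and genes of the cytokines and receptors that induce the acute phase moved in both directions. Of 20 listed genes 15 were tested, and in edgeR's test 2 rose and 2 fell (4 and 2 with DESeq2), beside the same 4.97% and 4.14% of all tested genes (8.02% and 7.12% with DESeq2), with a median log2 fold change of 0.32. *Il6* itself did not exceed 0.255 CPM in any liver and was not tested. *Clcf1*, a cytokine of the interleukin-6 family, had 4.49, 4.60 and 5.48 CPM in WT-labelled livers and 21.4, 12.5 and 7.60 CPM in *Themis*-KO-labelled livers (log2 fold change 1.51, adjusted p = 0.0404, SE 0.35). *Osmr*, the oncostatin M receptor, rose by 1.23 (adjusted p = 0.0335, SE 0.25), from 5.97 ± 1.08 to 13.98 ± 4.34 CPM. The receptor gene for leukaemia inhibitory factor, *Lifr*, fell by 0.56 (adjusted p = 0.0462, SE 0.14), and *Il1rap*, the accessory chain of the interleukin-1 receptor, fell by 0.69 (adjusted p = 0.0159, SE 0.10). *Il6st*, the shared signalling chain gp130, had a log2 fold change of 0.11 (adjusted p = 0.705).

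Among 28 signalling genes and transcription factors, all tested, 2 rose (7.14%, beside 4.97% of all tested genes) and 0 fell (beside 4.14%) in edgeR's test, with a median log2 fold change of 0.25. At an unadjusted p under 0.05, 10 were higher and 4 lower, beside 16.8% and 13.9% of all tested genes, and with DESeq2 7 were higher and 2 lower, beside 8.02% and 7.12%. *Tnfaip3*, a feedback inhibitor of NF-κB signalling, had 7.20, 7.43 and 9.11 CPM in WT-labelled livers and 18.0, 16.9 and 13.97 CPM in *Themis*-KO-labelled livers (log2 fold change 1.04, adjusted p = 0.0145, SE 0.15). *Cebpd*, whose product binds C/EBP motifs of acute phase promoters, had 18.1, 19.4 and 23.3 CPM against 26.4, 30.9 and 30.9 CPM (log2 fold change 0.53, adjusted p = 0.0407, SE 0.12). *Nfkbia*, which encodes the NF-κB inhibitor IκBα, had 0.45 (adjusted p = 0.0524, SE 0.12), not past the threshold. The abundant hepatocyte factors *Cebpa* and *Hnf4a* had −0.28 (adjusted p = 0.0931) and 0.05 (adjusted p = 0.842).

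Receptors and partners that clear or sense these proteins included 17 listed genes, of which 14 were tested. In edgeR's test 1 rose and 1 fell, or 7.14% each beside 4.97% and 4.14% of all tested genes, with a median log2 fold change of 0.07. With DESeq2 1 was higher and 4 lower, beside 8.02% and 7.12% of the genes it tested. *Tlr2*, a pattern receptor that binds serum amyloid A, rose by 1.04 (adjusted p = 0.0389, SE 0.23), from 5.18 ± 1.36 to 10.7 ± 2.35 CPM (SD, n = 3). *Lrp2*, which encodes megalin, a receptor for lipocalin-2, fell (adjusted p = 0.0438) but stood at 0.871 CPM or less in all livers. *Cd163*, the macrophage receptor for haptoglobin-haemoglobin complexes, had 17.8, 9.92 and 18.8 CPM against 6.45, 9.63 and 7.83 CPM, without overlap and with an adjusted p of 0.0562. *Lrp1*, the hemopexin receptor, had a log2 fold change of −0.38 (adjusted p = 0.116), *Scarb1*, a lipoprotein receptor that also binds serum amyloid A, −0.35 (adjusted p = 0.055) and *Asgr1*, a receptor for desialylated orosomucoid, −0.33 (adjusted p = 0.0568).

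Markers of other liver cells also differed between the labels. In edgeR's test 4 of 12 macrophage genes (*Cd68*, *Ccr2*, *Trem2* and *Gpnmb*), 6 of 11 stellate cell genes, 2 of 9 cholangiocyte genes (*Spp1* and *Cldn7*) and 1 of 8 endothelial genes (*Lyve1*) were higher and 0 lower. These were 33.3%, 54.5%, 22.2% and 12.5% of the tested genes of each list, beside 4.97% of all tested genes higher and 4.14% lower. Unadjusted, at a p under 0.05, the higher genes numbered 7, 8, 6 and 3, beside 16.8% of all tested genes. With DESeq2 they numbered 7, 7, 3 and 1, beside 8.02% of the genes it tested. In both, 0 were lower in each list, beside 13.9% and 7.12%. *Col3a1*, a fibrillar collagen gene of stellate cells, rose by 0.94 on the log2 scale (adjusted p = 0.00936, SE 0.11), and *Cd5l*, a Kupffer cell gene, had 0.70 (adjusted p = 0.0649, SE 0.20). *Clec4f*, *Vsig4*, *Timd4* and *Marco*, also Kupffer cell genes of the macrophage list, had 0.14, 0.22, −0.63 and −1.29, none past the threshold. Summed levels were 357 to 625 CPM against 600.2 to 789 CPM for the macrophage list, 451 to 515 CPM against 688 to 738 CPM for the stellate cell list and 155 to 194 CPM against 390 to 620 CPM for the cholangiocyte list, in which *Spp1*, also made by macrophages, took most counts. The endothelial list was at 252 to 277 CPM against 271 to 308 CPM. In the T and B cell list, at 6.55 to 8.82 CPM against 4.08 to 9.17 CPM, *Cd4* fell by 1.46 (adjusted p = 0.0386, SE 0.32) as 1 of 8 genes tested, and 0 rose at any of these thresholds. The fall was thus 12.5% of the list, beside 4.14% of all tested genes. *Cd4* was low, at 2.02, 1.05 and 1.81 CPM against 0.594, 0.516 and 0.661 CPM. The T cell genes *Cd3e*, *Trac* and *Cd8a* had log2 fold changes of −0.09, 0.0055 and 1.38, none past the threshold. Of the 6 adipocyte genes, 4 were in the table, and *Adipoq*, *Plin1* and *Slc7a10* had 3 counts or fewer in every liver. *Cidea*, the only gene of this list with enough counts to be tested, had 34.4, 25.7 and 36.0 CPM against 44.6, 31.5 and 55.9 CPM (log2 fold change 0.46, adjusted p = 0.187, SE 0.21). The summed level of the list was thus nearly all *Cidea*, and the cells that expressed it were not tested. The summed stellate cell and cholangiocyte levels did not overlap between the labels, whereas those of the macrophage, endothelial, T and B cell and adipocyte lists did. The part of these cells in the values of the acute phase protein genes was not tested.

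**Figure D4:**
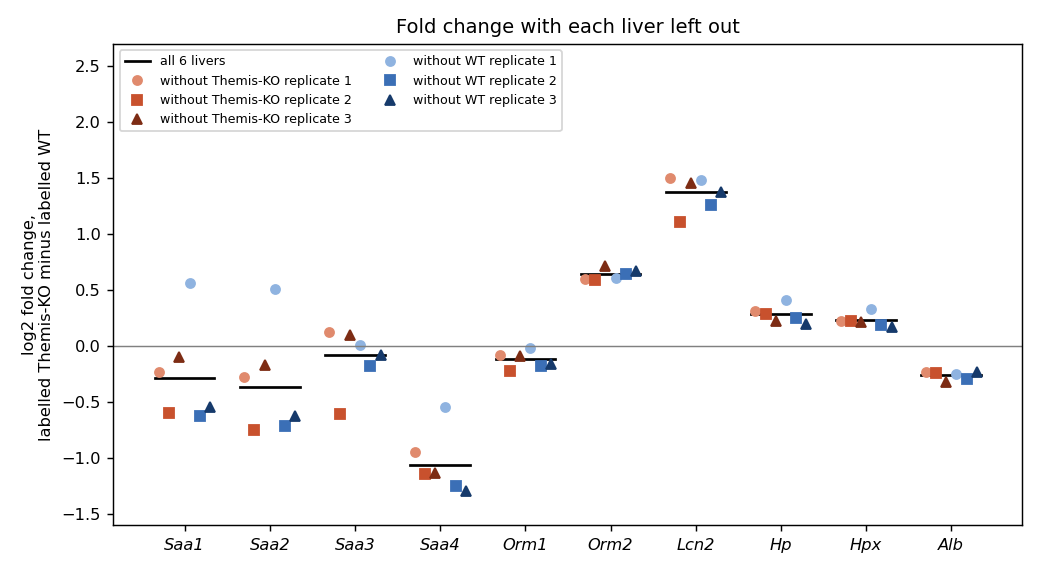
Log2 fold change of each acute phase protein gene, Themis-KO-labelled livers minus WT-labelled livers, with all 6 livers (black line) and with each liver left out in turn (points). Lcn2 stays between 1.11 and 1.5 and Orm2 between 0.59 and 0.71, whereas Saa1 and Saa2 lie below 0 except without WT replicate 1.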

How the data were processed

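Poly(A) RNA-seq libraries of 6 mouse livers were analysed from a table of genes by livers. According to the submitters' processing notes, cutadapt 2.3, STAR 2.7.8a and RSEM 1.3.3 were used with GRCm38. The authors deposited estimated counts per gene and liver from RSEM without normalization. The deposited values are whole numbers, a rounding that the sources used here do not describe. RSEM divides reads that fit several genes, so values of close copies are linked.

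The analysis ran in R 4.3.3, using edgeR 4.0.16 on limma 3.58.1. Genes passing filterByExpr by genotype label (14496, with 10907 left out) were scaled by TMM and compared with glmQLFit and glmQLFTest over all 6 livers without covariates, with Benjamini-Hochberg adjustment over all tested genes and a threshold of 0.05. The study used DESeq2, which served as an alternative (1.42.0). Library totals of 20679642 to 25649767 set the counting precision. Exact two-sided permutation tests over livers were used for ratios within a liver. The fit was tested on simulated counts. Coordinates are from GENCODE vM21, promoters from RefSeq GRCm38.p6. Figures were drawn with matplotlib 3.10.9.

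Groups came from the genotype labels. Named genes are the 10 members, *Themis*, *Orm3*, the 4 genes of smallest adjusted p and the 2 most abundant of each pathway list, the 2 most abundant of each cell type list, and the 2 genes nearest to 6 of the members in pattern. Some items that the rule or the motif search covers are not reported here. Genes named outside this rule were chosen after their values were seen. These are *Cp*, *Rbp4*, *Igfals*, *Il6*, *Ass1*, *Serpina1c*, *Cd68*, *Ccr2*, *Trem2*, *Gpnmb*, *Clec4f*, *Vsig4*, *Timd4*, *Marco*, *Cldn7*, *Lyve1*, *Cd3e*, *Trac*, *Cd8a* and the markers near 0. The members and lists were chosen with earlier results of these data known. Alternatives were RLE and upper quartile scaling, total counts alone, scaling without the members, other count filters, DESeq2, a replicate block, each liver left out, near-identical genes summed and, added after seeing the data, the mitochondrial type (*Gm28438* high or low) as a covariate.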

Additional observations from a re-analysis of the deposited data

How the results depend on the processing

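Of 158 alternative values for single genes, 134 kept their direction and side of the threshold. In place of 2 members higher in edgeR's test, scaling by total counts alone gave 4 (*Hp* and *Hpx* added), summing near-identical genes gave 1, the mitochondrial type as a covariate gave 0, and leaving out single livers gave 0 to 2, with 0 without WT replicate 1, WT replicate 2 or *Themis*-KO replicate 1. With the same livers left out, the tested genes higher overall fell from 721 to 12, 19 and 8. In the fit with summed genes, *Orm2* entered only as part of its family sum, so it could not be counted there. Members lower numbered 1 in place of 0 with no filter (*Saa4*) and with DESeq2 (*Alb*), and 0 without any single liver. Total counts alone moved the median log2 fold change of all tested genes from 0.0095 to 0.15 and the calls over all genes from 721 higher and 600 lower to 1447 and 387.

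The study describes pairs of WT and *Themis*-KO livers, and the labels do not say which livers form a pair. Same-numbered livers correlated at 0.00028, −0.24 and −0.16 in their deviations from the label means. Such values from 3 livers per label cannot show whether the replicate numbers pair the livers. With the replicate block 0 members were higher, with adjusted p of 0.0643 for *Lcn2* and 0.0817 for *Orm2*, and 17 genes were higher and 45 lower overall.

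The direction turned for *Saa1* with the mitochondrial covariate (0.40) and in the leave-one-out range (−0.62 to 0.56), for *Saa2* likewise (0.32 and −0.75 to 0.51), for *Saa3* with total counts alone (0.062) and on leaving out livers (−0.61 to 0.12), for *Orm1* with total counts alone (0.022) and for the log2 ratio of *Saa3* to *Saa1* on leaving out livers (−0.62 to 0.17). *Lcn2* stayed between 1.11 and 1.52 and passed the threshold in 11 of 16 alternatives, and *Orm2* stayed between 0.59 and 0.78 and passed in 9 of 15. The cause of these changes was not tested. Both livers of the high *Gm28438* type are labelled WT, so type and label are partly confounded, and in the covariate fit the label difference within a type rests on WT replicate 3.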

Other observations

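Genes other than the 10 members that followed single members across the 6 livers were found by the root mean square difference of centred log2(CPM + 1). Nearest to *Saa1* were *Sdf2l1* (difference 0.149), with 60.5, 17.7 and 18.8 CPM in livers labelled WT and 20.9, 30.6 and 15.8 CPM in livers labelled *Themis*-KO, and *Creld2* (0.20), with 115, 28.4 and 36.0 CPM against 47.4, 66.4 and 23.4 CPM. Both encode proteins of the endoplasmic reticulum, and both were highest in WT replicate 1, as *Saa1* was. Nearest to *Lcn2* were *Gm21188* (0.234) and *Rragd* (0.235), a gene of amino acid sensing at the lysosome with 4.26, 3.60 and 4.06 CPM against 10.5, 10.5 and 9.91 CPM. Nearest to *Saa3* were *Gm6206* (0.11) and *Alyref2* (0.171), to *Orm1* *Zbtb7b* (0.0377) and *Jak3* (0.0385), to *Hp* *Rps28* (0.044) and *Ppp1r26* (0.0519), and to *Alb* *Snrnp200* (0.0109) and *Cops3* (0.0213). *Ppp1r26* stood at 0.802 CPM or less in all livers, where adding 1 flattens differences. *Orm1*, *Hp* and *Alb* varied little themselves, with root mean squares of centred values of 0.143, 0.198 and 0.143, against 0.662 for *Saa1*. Small differences from these 3 members therefore partly reflect low variation. With 6 livers and 14496 genes searched these are descriptions of likeness, with no test.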
